A study of Heterocephalus glaber with 2 samples.

Results

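The complement genes described here are *C1r*, *C1s*, *C2*, *C3*, *C5*, *Cfb*, *Cfd*, *Cfi* and *Serping1*, 9 components and regulators of the complement system chosen by name from the gene tables of naked mole-rat (NMR) skin fibroblasts (NSFs). Both tables list 8 of the 9 among their 37520 genes, each with a single entry. *C5*, the component that starts the lytic end of the cascade, had no entry under that symbol, so no value is given for it. The NSFs were primary cells of adult NMRs, transduced with a lentivirus, selected with puromycin and, in the culture conditions of the study, kept at low oxygen. One culture received the empty vector (shControl, labelled control-knockdown) and the other hairpin #1 against *β-catenin* (*shβ-catenin*, labelled beta-catenin-knockdown). Each was sequenced as 1 library. The control therefore carries no hairpin, the knockdown rests on 1 of the hairpins that the study designed, and no value below has a replicate error or a test.

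Complement is a cascade of secreted proteases and their substrates that marks microbes, dead cells and immune complexes for removal. The classical pathway starts when C1q binds its target and activates the proteases C1r and C1s, of which C1s cleaves C4 and C2. The lectin pathway reaches the same substrates through MASP proteases, and the alternative pathway amplifies C3 cleavage through factor B and factor D. All routes converge on C3 and then on C5. C1 inhibitor (*Serping1*) and factor I (*Cfi*) restrain the cascade in the fluid around cells. Liver cells make most of the complement of plasma, and fibroblasts are a known local source of several components.

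The target itself, *Ctnnb1*, stood at 530 FPKM in shControl against 69.0 FPKM after knockdown. FPKM are fragments scaled to exon length and to the mapped fragments of the library, so levels can be set side by side between genes. The FPKM of all genes summed to 609786 in shControl and 591905 in *shβ-catenin* cells, and fragment numbers are unknown. Among 10 fibroblast markers, *Vim* was highest (3363 and 2804 FPKM) and *Col1a1* was listed at 1258 and 856 FPKM, both lower after knockdown. Also lower were *Col1a2* (836 and 540 FPKM), *Col3a1* (1067 and 542 FPKM), *Pdgfra* (59.0 and 36.2 FPKM) and *Pdgfrb* (64.5 and 36.8 FPKM). *Fn1* (1089 and 1957 FPKM) had the opposite direction. *Dcn* (0.316 and 2.42 FPKM), *Lum* (0.574 and 1.38 FPKM) and *Thy1* (0.303 and 1.39 FPKM), which also mark many fibroblasts, were under 1 FPKM in shControl and higher after knockdown. Of the 8 fibroblast markers that averaged 1 FPKM or more over the libraries, 6 were lower after knockdown and 2 higher. The hepatocyte genes *Alb*, *Ttr* and *Apoh* and the keratinocyte keratins *Krt5* and *Krt1* were listed at 0 in both libraries. Other markers of these cells were above 0, among them *Ahsg* (5.67 and 3.18 FPKM) of hepatocytes and *Krt18* (22.6 and 7.21 FPKM), *Dsp* (17.6 and 14.7 FPKM) and *Krt10* (0.0462 and 0.167 FPKM) of epithelia. Summed, the 5 hepatocyte markers listed reached 5.67 and 3.24 FPKM and the 7 keratinocyte markers 40.2 and 22.2 FPKM. A listed 0 does not show absence, since *Ywhaz*, which nearly all cells use, is also listed at 0.

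The 8 listed complement genes spanned a wide range. In shControl the order of the levels ran from *C1r* through *C1s*, *C3*, *Serping1*, *Cfd*, *Cfb* and *C2* to *Cfi*. In *shβ-catenin* cells *C3* stood above *C1s*, and the order was otherwise the same. Which neighbours in this order differ beyond a replicate spread is not known from 1 library each. Summed over the 8 genes, the level was 395 FPKM in shControl against 440 FPKM after knockdown, or 0.0648% and 0.0743% of all FPKM.

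**Figure D1:**
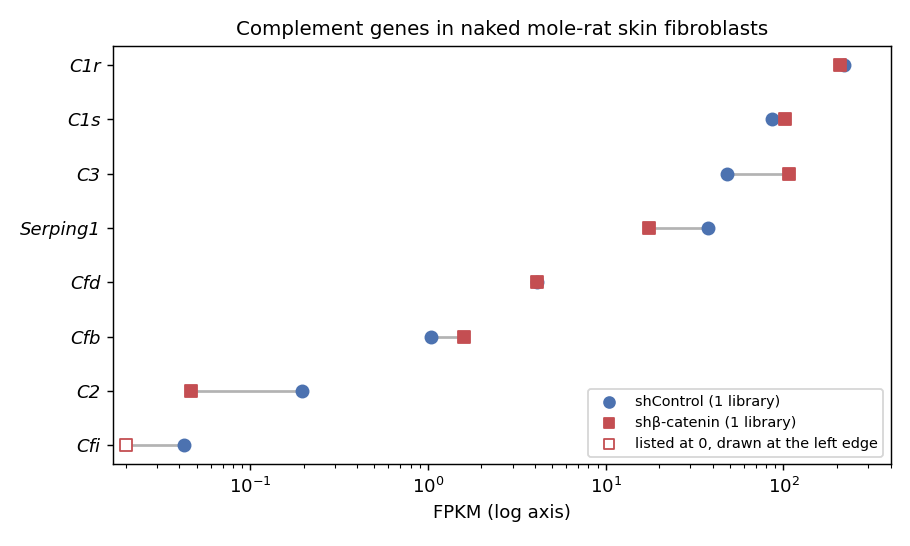
FPKM (log axis) of the 8 listed complement genes in the shControl library (circles) and the *shβ-catenin* library (squares), 1 library each, so no error bars are drawn. *C1r* was highest in both libraries, *C3* lay to the right and *Serping1* to the left in *shβ-catenin* cells, *Cfd* coincided, and the open square marks the listed 0 of *Cfi*.

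Fold-changes are given as log2 of (*shβ-catenin* + 0.1) / (shControl + 0.1) FPKM, which understates the difference of low genes, and folds as the plain ratio of the FPKM values. Genes are counted as past 2-fold or 4-fold on the log2 scale. Of the 8 genes, 6 had a mean of at least 1 FPKM over the 2 libraries. Of these, *C3* was more than 2-fold higher in *shβ-catenin* cells and *Serping1* more than 2-fold lower. Among all 13097 genes that passed this filter, 3.27% were more than 2-fold higher and 2.05% more than 2-fold lower. None of the 6 passed 4-fold, the threshold of the study, against 0.68% of all genes on the higher and 0.206% on the lower side. The study states neither a pseudocount nor this filter. *C2*, under the filter, was 4.23-fold lower as a plain ratio. The median log2 fold-change of the 6 was 0.13, beside −0.01 over all 13097 genes.

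*C3*, the central component whose cleavage deposits C3b on surfaces, was listed at 48.4 FPKM in shControl against 107 FPKM after knockdown. It was the most different of the higher members, at 2.21-fold and a log2 fold-change of 1.14. Of all genes past the filter, 97.5% had a lower log2 fold-change than *C3*, and 91.3% a lower mean level. Large folds were rarer among well expressed genes. At a mean of at least 5 FPKM, where *C3* and *Serping1* also lie, 1.44% of 9274 genes were more than 2-fold higher and 1.26% more than 2-fold lower.

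*Serping1* encodes C1 inhibitor, the serpin that inactivates C1r, C1s and the MASP proteases. It was listed at 37.5 FPKM in shControl against 17.6 FPKM after knockdown, 2.13-fold lower, with a log2 fold-change of −1.09. Of the genes past the filter, 1.63% had a lower log2 fold-change. In the RefSeq annotation of another NMR assembly, *Serping1* overlaps its neighbour *Ube2l6*, a ubiquitin-conjugating enzyme, which was listed at 58.6 and 53.3 FPKM. Whether the counting separated fragments of these genes by strand is not given in the sources used here, so the part of *Ube2l6* in the *Serping1* value was not tested.

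*C1r* and *C1s*, the paired proteases of the C1 complex, had the highest levels of the listed members in shControl. *C1r* was listed at 218 FPKM in shControl against 207 FPKM after knockdown (log2 fold-change −0.08). *C1s*, the protease that cleaves C4 and C2, was listed at 85.7 and 103 FPKM (0.26). These differences were small, and 1.06-fold lower and 1.20-fold higher values went in opposite directions. The genes lie beside each other in the RefSeq table, next to *C1rl*, and the *C1r* span there also holds a long non-coding RNA, and the part of that RNA in the *C1r* value was not tested.

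Set against their inhibitor, the level of *C1s* was 2.28 times that of *Serping1* in shControl and 5.82 times in *shβ-catenin* cells. The level of *C1r* was 5.82 times that of *Serping1* in shControl and 11.7 times in *shβ-catenin* cells. *C3* is not among the targets of C1 inhibitor named above. Its level was 1.29 times that of *Serping1* in shControl and 6.06 times in *shβ-catenin* cells, a ratio of the members past 2-fold in opposite directions. Such ratios are of transcripts within a library and do not depend on how the libraries are scaled. They follow from the values of the single genes above.

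The alternative pathway proteases were much lower than *C3*. *Cfb* encodes factor B, the protease of the alternative C3 convertase, and was listed at 1.05 FPKM in shControl against 1.61 FPKM after knockdown, 1.54-fold higher (log2 fold-change 0.57). In the RefSeq table its end overlaps *Nelfe*, a subunit of a transcription elongation factor, which was listed at 20.5 and 15.0 FPKM. *Nelfe* thus had the opposite direction and a level 19.7 times that of *Cfb* in shControl and 9.34 times in *shβ-catenin* cells. The part of *Nelfe* fragments in the *Cfb* value was not tested.

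*Cfd* encodes factor D, or adipsin, which cleaves factor B and is abundant in fat cells. It was listed at 4.11 FPKM in shControl against 4.12 FPKM after knockdown, a log2 fold-change of 0.0028, so its 2 values were nearly equal. Of 5 adipocyte markers listed, *Plin1* and *Lep* were at 0 in both libraries and *Adipoq*, the adipokine that defines fat cells, was at 0 and 0.0395 FPKM. The summed level of the 5 was 4.38 FPKM in shControl against 8.25 FPKM after knockdown, most of it *Pparg* (2.92 and 7.28 FPKM), the adipogenic nuclear receptor. *Cidec*, a lipid droplet gene, had the opposite direction (1.46 and 0.929 FPKM). Their part in the *Cfd* values was not tested.

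*C2* and *Cfi* were under 1 FPKM and do not count among the 6. *C2*, the protease of the classical C3 convertase and a neighbour of *Cfb*, was listed at 0.196 FPKM in shControl against 0.0464 FPKM after knockdown, 4.23-fold lower as deposited and −1.02 on the log2 scale with the pseudocount. *Cfi*, the protease that destroys C3b, was listed at 0.0427 FPKM in shControl and at 0 in *shβ-catenin* cells, so no fold is given. Both were lower, at levels far under the filter, and the fragment numbers behind their values are unknown. Transcripts of *Cfi* and *C2* were barely detected beside those of *C3*, *C1r* and *C1s*.

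Among the members, counting error could be described for *Cfb* and *Cfd* only. The commonest knockdown to control ratio among low genes was 1.20, as equal whole fragments give when shControl holds 1.20 times the fragments. At that factor the *Cfb* ratio equals 18 control to 23 knockdown fragments, within 0.002%, and the *Cfd* ratio 6 to 5. These are the smallest whole numbers that give the ratios, and multiples give the same ratio. At the smallest numbers the exact Clopper-Pearson 95% interval of the knockdown to control ratio was 0.793 to 3.02 for *Cfb* and 0.242 to 3.94 for *Cfd*. At double these numbers it was 0.972 to 2.45 and 0.388 to 2.53. All of these intervals include no difference, and they cover counting error only, not differences between cultures. The true fragment numbers are unknown and may be larger multiples, which would give narrower intervals and were not run. For *C2* no whole fragments with a total of up to 60 gave the ratio.

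**Figure D2:**
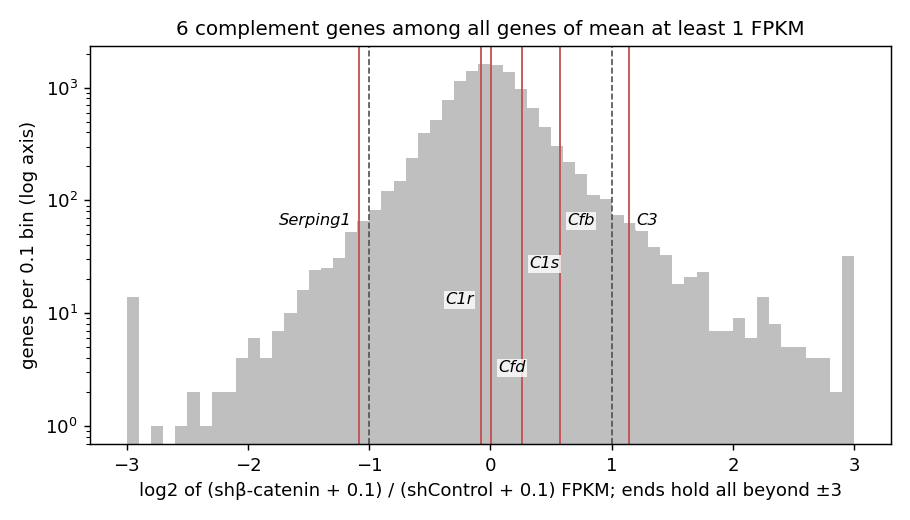
Histogram of log2 fold-changes (*shβ-catenin* over shControl, pseudocount 0.1 FPKM) of the 13097 genes that passed the filter of 1 FPKM, with the number of genes per bin on a log axis, dashed lines at 2-fold and red lines at the 6 complement genes above the filter. *C3* (1.14) and *Serping1* (−1.09) lie beyond the dashed lines on opposite sides, and *C1r*, *Cfd*, *C1s* and *Cfb* lie between them.

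A wider list of 58 complement genes, the 9 included, gives the setting. Of these, 48 were listed, 15 of them at 0 in both libraries, 18 others with a mean under 1 FPKM and 15 that passed the filter. After knockdown, 12 of the 15 were higher and 3 lower, where 48.7% of all genes past the filter were higher. The nearly equal *Cfd* is counted among the 12. More than 2-fold higher were 3 (*C3*, *C1qa* and *Clu*), beside 3.27% of all genes past the filter. With a pseudocount of 1 FPKM they were 2, without *C1qa*. More than 2-fold lower was 1 (*Serping1*), beside 2.05% of all genes past the filter. The median log2 fold-change of the 15 was 0.46. Without the members, 8 of 9 were higher, with a median of 0.48. Of the 18 genes under the filter, 15 were higher, beside 5499 of the 9027 such genes in the whole table. Of the 15, *C3ar1*, *C5ar1* and *Itgb2* have the ratio of equal fragment numbers. Genes of 1 list are not replicates of a condition, and the counts describe only these libraries.

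**Figure D3:**
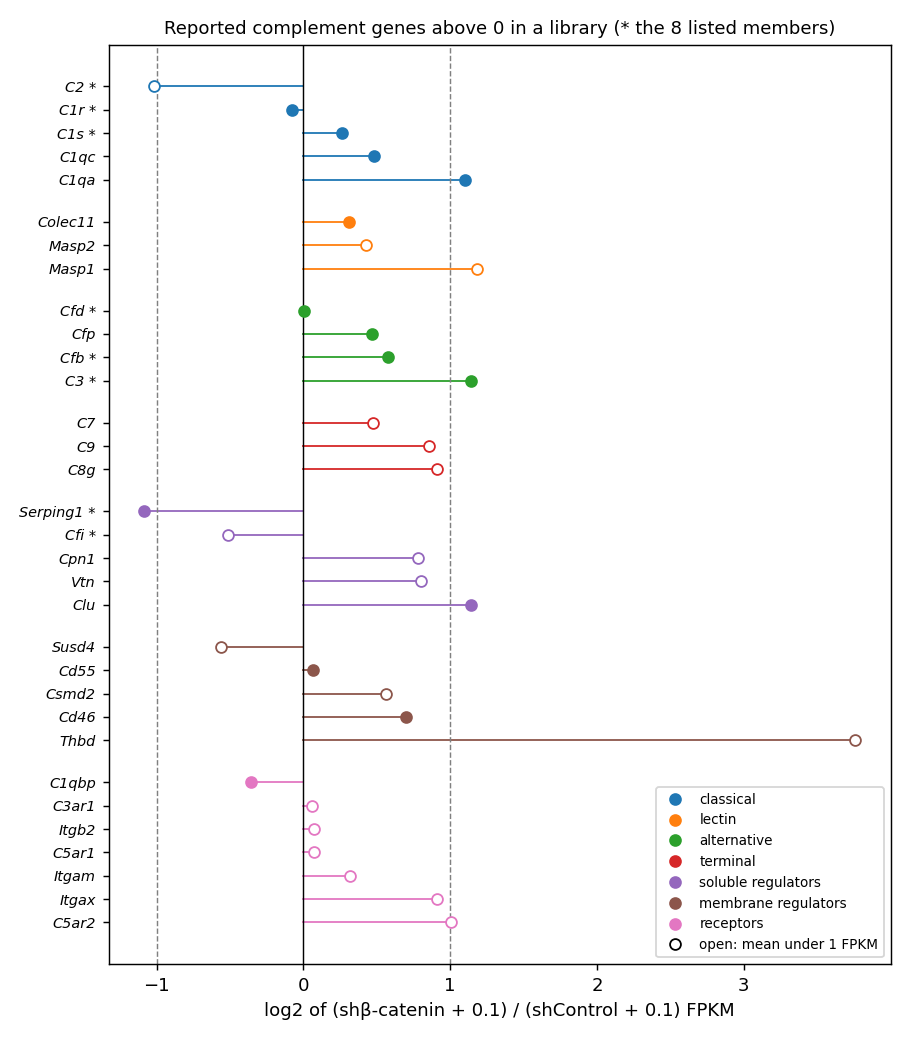
Log2 fold-change (*shβ-catenin* over shControl, pseudocount 0.1 FPKM) of the complement genes above 0 in a library that are reported here, grouped by role, with filled points for a mean of at least 1 FPKM, open points below it and dashed lines at 2-fold. Most filled points lie right of 0, and *Serping1*, *C1r* and *C1qbp* lie left of it.

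In the classical pathway, the A and C chains of C1q were above the filter. *C1qa*, the A chain, was listed at 5.40 FPKM in shControl against 11.7 FPKM after knockdown, 2.17-fold higher. *C1qc*, the C chain, was listed at 9.52 and 13.3 FPKM, 1.40-fold higher. *C1qb*, the chain that completes the C1q molecule, was listed at 0 in both. No entry was found under *C4*, *C4a* or *C4b*, so C4, which C1s cleaves beside C2, has no value here.

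C1q is chiefly a product of macrophages. Of 12 leukocyte markers listed, *Ptprc*, *Laptm5* and *Cd163* were at 0 in both libraries, and the summed level of the 12 was 72.8 FPKM in shControl against 210 FPKM after knockdown. *Lyz*, *Cd14* and *Cd68* carried nearly all of it. *Cd14*, a receptor for bacterial lipopolysaccharide, was listed at 17.4 and 49.9 FPKM. *Csf1r*, the macrophage growth factor receptor, was at 0.0228 and 0.0547 FPKM, a ratio of 1 to 2 fragments or multiples of them. The 4 markers past the filter were higher after knockdown, where 48.7% of all genes past the filter were. Of 5 others above 0, 4 were higher and 1 lower, *Tyrobp* (0.828 and 0.498 FPKM). The part of leukocytes in the higher *C1qa* and *C3* values was not tested, and in bulk RNA more cells of a type and more RNA per cell cannot be told apart.

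The lectin pathway genes were low. *Colec11*, a soluble lectin that starts this pathway, was listed at 1.12 and 1.41 FPKM. *Masp1*, a protease of the pathway, was listed at 0.328 FPKM in shControl against 0.870 FPKM after knockdown, and *Masp2*, the main protease that cleaves C4 and C2, at 0.474 and 0.671 FPKM. The *Masp2* ratio is that of 17 to 20 fragments at the smallest, with a counting interval of 0.704 to 2.88. *Mbl2*, *Fcn1*, *Fcn3* and *Colec10*, other recognition molecules, were listed at 0 in both.

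*Cfp*, or properdin, which stabilises the alternative C3 convertase, was listed at 1.65 FPKM in shControl against 2.32 FPKM after knockdown. Of the 4 alternative pathway genes, *C3*, *Cfp* and *Cfb* were thus higher after knockdown and *Cfd* was nearly equal. In the terminal pathway, which forms the membrane attack pore, none of the genes listed reached a mean of 1 FPKM. *C8g*, a chain of C8, was listed at 0.429 and 0.894 FPKM (15 and 26 fragments at the smallest, interval 1.06 to 4.23), *C7* at 0.185 and 0.296 FPKM and *C9*, the pore-forming component, at 0.0448 and 0.162 FPKM. *C6*, *C8a* and *C8b* were listed at 0 in both.

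Among the other soluble regulators, *Clu* had the opposite direction to *Serping1*. *Clu*, or clusterin, which keeps the terminal complex from inserting into membranes, was listed at 163 and 360 FPKM. Its fold of 2.21 equalled that of *C3*, so that *Clu* was 3.37 times the level of *C3* in both libraries. *Vtn*, vitronectin, another inhibitor of the terminal complex, was at 0.113 and 0.272 FPKM, a ratio of 1 to 2 fragments or multiples of them. *Cpn1*, a chain of the carboxypeptidase that inactivates C3a and C5a, was listed at 0 and 0.0720 FPKM, and *Cpn2* and *C4bpb* at 0 in both.

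Among the membrane regulators, *Cd46*, a cofactor for factor I, was listed at 1.41 FPKM in shControl against 2.35 FPKM after knockdown, 1.67-fold higher. *Cd55*, which speeds the decay of convertases, was listed at 1.04 and 1.10 FPKM. Both were low, and *Cd59*, the inhibitor of the pore, had no entry under that symbol. *Susd4*, a membrane inhibitor of convertases, was listed at 0.417 and 0.251 FPKM, the ratio of 2 to 1 fragments. *Thbd*, thrombomodulin, which promotes inactivation of C3b beside its role in coagulation, was listed at 0.0255 FPKM in shControl against 1.60 FPKM after knockdown. This ratio of 62.5 is that of 1 to 52 fragments at the smallest, with a counting interval of 10.7 to 2517. Its mean lay under 1 FPKM, so *Thbd* is not among the 15. Thrombomodulin is best known from endothelium. Of 6 endothelial markers, *Tek* was listed at 0 in both libraries, *Cdh5* and *Cldn5* at 0 in shControl, and the summed level was 0.342 FPKM in shControl against 2.47 FPKM after knockdown, most of it *Pecam1* (0.275 and 2.08 FPKM), and their part in the *Thbd* value was not tested.

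The receptors for complement fragments were low. *C3ar1* and *C5ar1*, the receptors of C3a and C5a, were listed at 0.0262 and 0.0345 FPKM in shControl against 0.0315 and 0.0414 FPKM after knockdown. Both have the ratio of equal fragment numbers, as has *Itgb2*, the shared chain of the integrin receptors for C3 fragments, which is no difference in fragments. *C5ar2*, a second C5a receptor, was at 0.120 and 0.342 FPKM, and *Itgax*, an integrin chain of such receptors, at 0.341 and 0.729 FPKM. The counting interval of the *Itgax* ratio was 0.889 to 5.49 at the smallest fragment numbers and 1.16 to 4.04 at double these, so it includes no difference only at the smallest. *C1qbp*, a mostly mitochondrial protein that also binds C1q, was listed at 93.9 and 73.4 FPKM, 1.28-fold lower.

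Transcription of *C3*, *Cfb* and *C1s* is known from other mammals to respond to interleukin 1, interleukin 6, interferon γ and the factors NF-κB, C/EBP and STAT. Of 14 genes of such cytokines and factors, 11 passed the filter at 1 FPKM. After knockdown 9 of them were higher and 2 lower, and their median log2 fold-change was 0.47, beside 48.7% higher and a median of −0.01 over all genes past the filter. The 3 more than 2-fold higher, beside 3.27% of all genes, were cytokines. *Il1a*, interleukin 1α, was listed at 22.1 and 77.0 FPKM, *Il1b*, interleukin 1β, at 5.42 and 75.6 FPKM, and *Il6* at 1.36 and 4.69 FPKM. *Cebpb* was listed at 61.6 and 85.2 FPKM and *Cebpd* at 47.2 and 64.6 FPKM, both encoding C/EBP factors of the acute phase response. Among the lower was *Stat3* (81.1 and 66.5 FPKM), a mediator of interleukin 6. Another cytokine of the list, *Tnf*, was under the filter and lower after knockdown (0.243 and 0.0729 FPKM), and *Ifng* was listed at 0 in both. Whether any of these acts on the complement genes of NSFs was not tested. This list was chosen with earlier results of these data known, and the study itself reports higher *Il1b*. Its counts and median are therefore a description only.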

How the data were processed

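Naked mole-rat skin fibroblasts were measured as 1 shControl and 1 *shβ-catenin* library, grouped by the labels. The authors prepared libraries with a stranded mRNA kit, mapped paired reads to the NMR genome with TopHat2 2.0.13, Bowtie2 2.2.3 and SAMtools 0.1.19, and deposited FPKM values from Cufflinks 2.2.1. The annotation, strand setting and scaling between libraries are not given in the sources used here, and depth is unknown.

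FPKM were used as deposited, with a pseudocount of 0.1, a filter at a mean of 1 FPKM and folds of 2 and 4 as thresholds. Members and lists were chosen with earlier results of these data known. All listed members were named, and of the wider list those above 0, except that some genes of the lists enter the counts but are not reported here by name. Relative depth came from the ratios of 5239 genes under 1 FPKM in both libraries. Whole fragments with a total of up to 60 gave the ratio for 64.2% of genes with a mean under 1 FPKM (0.655% with the factor shifted by 1.4%) and for 27.2% from 1 to 5 FPKM (1.26% shifted). The latter range, which holds *Cfb* and *Cfd*, was added after values were seen. RefSeq names and neighbours came from H.glaber_assembly_v1.0, another assembly than the one mapped to. It held 8 of the 9 symbols. No sequences were used. Scripts were tested on simulated data and ran in Python 3.11.15 with pandas 2.3.3, numpy 2.4.6, matplotlib 3.10.9 and scipy 1.17.1.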

Additional observations from a re-analysis of the deposited data

How the results depend on the processing

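The folds of the listed members were recomputed with other pseudocounts (0.01 and 1) and other scalings (median ratio, upper quartile, FPKM sum without mitochondrial genes). The counts past 2-fold and 4-fold and the median of the wider list were recomputed with the same settings except the last scaling. These counts and the median were also recomputed without a filter, with one at 5 FPKM, and over symbols of a single entry. Of 103 recomputed values, 96 stayed the same, 5 moved, 1 was weaker and 1 stronger. The same means an unchanged side of 2-fold for a gene, within 1.5-fold for a count and within 0.1 for the median. Counts have no direction, and a pseudocount cannot change the direction of a fold, so unchanged directions say little here. The scalings shifted log2 fold-changes by up to 0.02, 0.03 and 0.01 (*C2* by less, *Cfi* not at all), and under every alternative run *C3* and *Serping1* stayed past 2-fold and *C1r*, *C1s*, *Cfb* and *Cfd* within it. At a pseudocount of 1, *C2* had a log2 fold-change of −0.19, within 2-fold, the median of the wider list was 0.32, and 2 of its genes were more than 2-fold higher in place of 3, *C1qa* falling within 2-fold. At 0.01, *Cfi* had −2.40, past 2-fold. Without the filter on low values, 2 listed members (*Serping1* and *C2*) were more than 2-fold lower. In the wider list 6 were then more than 2-fold higher, 2 more than 2-fold lower and 1 (*Thbd*) more than 4-fold higher. The share of all genes past these folds without a filter was not computed, so these counts cannot be set against a background. The movement with pseudocount and filter comes from low genes entering or being drawn towards 0. Because each condition has 1 library, no library could be left out and no replicate error is known. No paired analysis was possible because there are no replicates.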

Other observations

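Relatives of the complement proteins, listed after the complement values were seen and therefore given as values only, went both ways. *Cd109*, a membrane protein built like C3 with an internal thioester, was listed at 30.9 FPKM in shControl against 10.7 FPKM after knockdown, 2.88-fold lower, where *C3* was higher. Of 20 genes of the C1q domain family, 8 passed the filter. Of these 5 were higher and 3 lower after knockdown, and the median log2 fold-change was 0.16, where 48.7% of all genes past the filter were higher. *C1qtnf3*, a secreted adipokine-like protein, was the most abundant in shControl (225 and 121 FPKM), and *C1qtnf1* after knockdown (137 and 164 FPKM). *Pamr1*, a secreted relative with CUB and protease domains like those of C1r and C1s, was listed at 5.28 and 38.7 FPKM, 7.34-fold higher, while *C1rl*, the neighbour of *C1r*, was listed at 21.6 and 17.8 FPKM.

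C1 inhibitor also restrains the contact system of coagulation. *F12*, the factor XII gene, was listed at 4.39 and 7.90 FPKM, and its partners *F11* and *Klkb1*, further targets of C1 inhibitor, at 0 in both libraries. The plasminogen activator genes *Plau* (45.5 and 22.2 FPKM) and *Plat* (72.8 and 57.1 FPKM) were lower. In the protein C pathway, to which thrombomodulin belongs, *Procr*, the protein C receptor, was listed at 26.5 and 44.2 FPKM, and *Pros1*, protein S, which circulates with the complement inhibitor C4BP, at 41.4 and 12.8 FPKM, 3.25-fold lower.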
